A study of Mus musculus with 16 samples.

Results

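A set of 9 genes for surface proteins and regulators of blood stem and progenitor cells was followed, namely Kit, Cd34, Procr, Mecom, Hlf, Meis1, Cd93, Ly6a and Prom1. They were chosen by gene name, as every array probe that carried one of the 9 names, which gave 12 probes. All 9 were among the 24578 genes tested. RNA came from cells sorted by flow cytometry out of mouse conceptuses at E11.5 (days after conception), of mixed strain background (B6/CBA and others), and each of 16 samples was hybridised to a 1-colour Agilent array. Tie-2-Etv2 animals carried an Etv2 transgene that a Tie-2 Cre transgene had switched on, so it was active wherever Tie-2 (Tek), a receptor of endothelial and some blood cells, had driven Cre. The control animals are labelled only as controls. Cells positive for VE-cadherin were split by the leukocyte protein CD45, and both gates were taken from the yolk sac and from the embryo proper. The 8 groups, with 2 arrays each, were thus Tie-2-Etv2 and control cells of 4 populations: yolk sac CD45+, yolk sac CD45-, embryo CD45+ and embryo CD45-. For the transgenic embryo CD45- samples the title mentions Tie-2 alone, while the genotype field reads Tie-2-Etv2. No label says that the 2 samples of a group were separate embryos or litters, so a p-value here covers the spread of these samples alone, and that spread may be technical.

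At midgestation, blood cells arise from endothelium in the yolk sac and in the arteries of the embryo, and the transcription factor Etv2 acts at the root of both lineages. Kit is the receptor for stem cell factor, Cd34, Cd93, Procr, Prom1 and Ly6a (Sca-1) are surface proteins used to sort stem and progenitor cells, and Meis1, Mecom and Hlf are transcription factors of blood stem cells. Most of these proteins are not exclusive to blood stem and progenitor cells. Cd34, Cd93, Procr, Ly6a and Mecom are also known from endothelial cells. Kit is also known from mast cells, melanoblasts and germ cells, and Prom1 from epithelial and neural progenitors.

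A level here is the log2 of a probe's processed intensity minus the 75th percentile of its array, so 0 is the level of a fairly bright probe and 1 unit is a doubling. Levels of different probes were not compared, because probes differ in how they bind. A difference is on the same log2 scale, with its standard error (SE), and a gene passed the test when limma's adjusted p was below 0.05. Between 50.6% and 59.9% of probes were well above background on each array, no spot was saturated, and across genes the 2 arrays within each group had correlations of 0.975 to 0.992. Etv2 was higher in Tie-2-Etv2 cells by 6.08 ± 0.96 in yolk sac CD45+ cells (adjusted p = 0.00083) and by 6.36 ± 0.96 in yolk sac CD45- cells (adjusted p = 0.000508). The Etv2 differences in the embryo, 3.09 ± 0.96 in CD45+ and 2.50 ± 0.96 in CD45- cells, did not pass the test (adjusted p = 0.124 and 0.573). Ptprc, the gene of CD45, was at least 306-fold higher in CD45+ than in CD45- control cells of the yolk sac and at least 287-fold higher in those of the embryo. Cdh5, the gene of VE-cadherin, differed between CD45+ and CD45- control cells by -6.01 in the yolk sac and -5.95 in the embryo, although both gates are labelled VE-cadherin-positive. All embryo arrays lay on 1 slide and all yolk sac arrays on another, so tissue and slide cannot be told apart. In such bulk samples, fewer cells of a type and less RNA per cell cannot be told apart either.

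**Figure D1:**
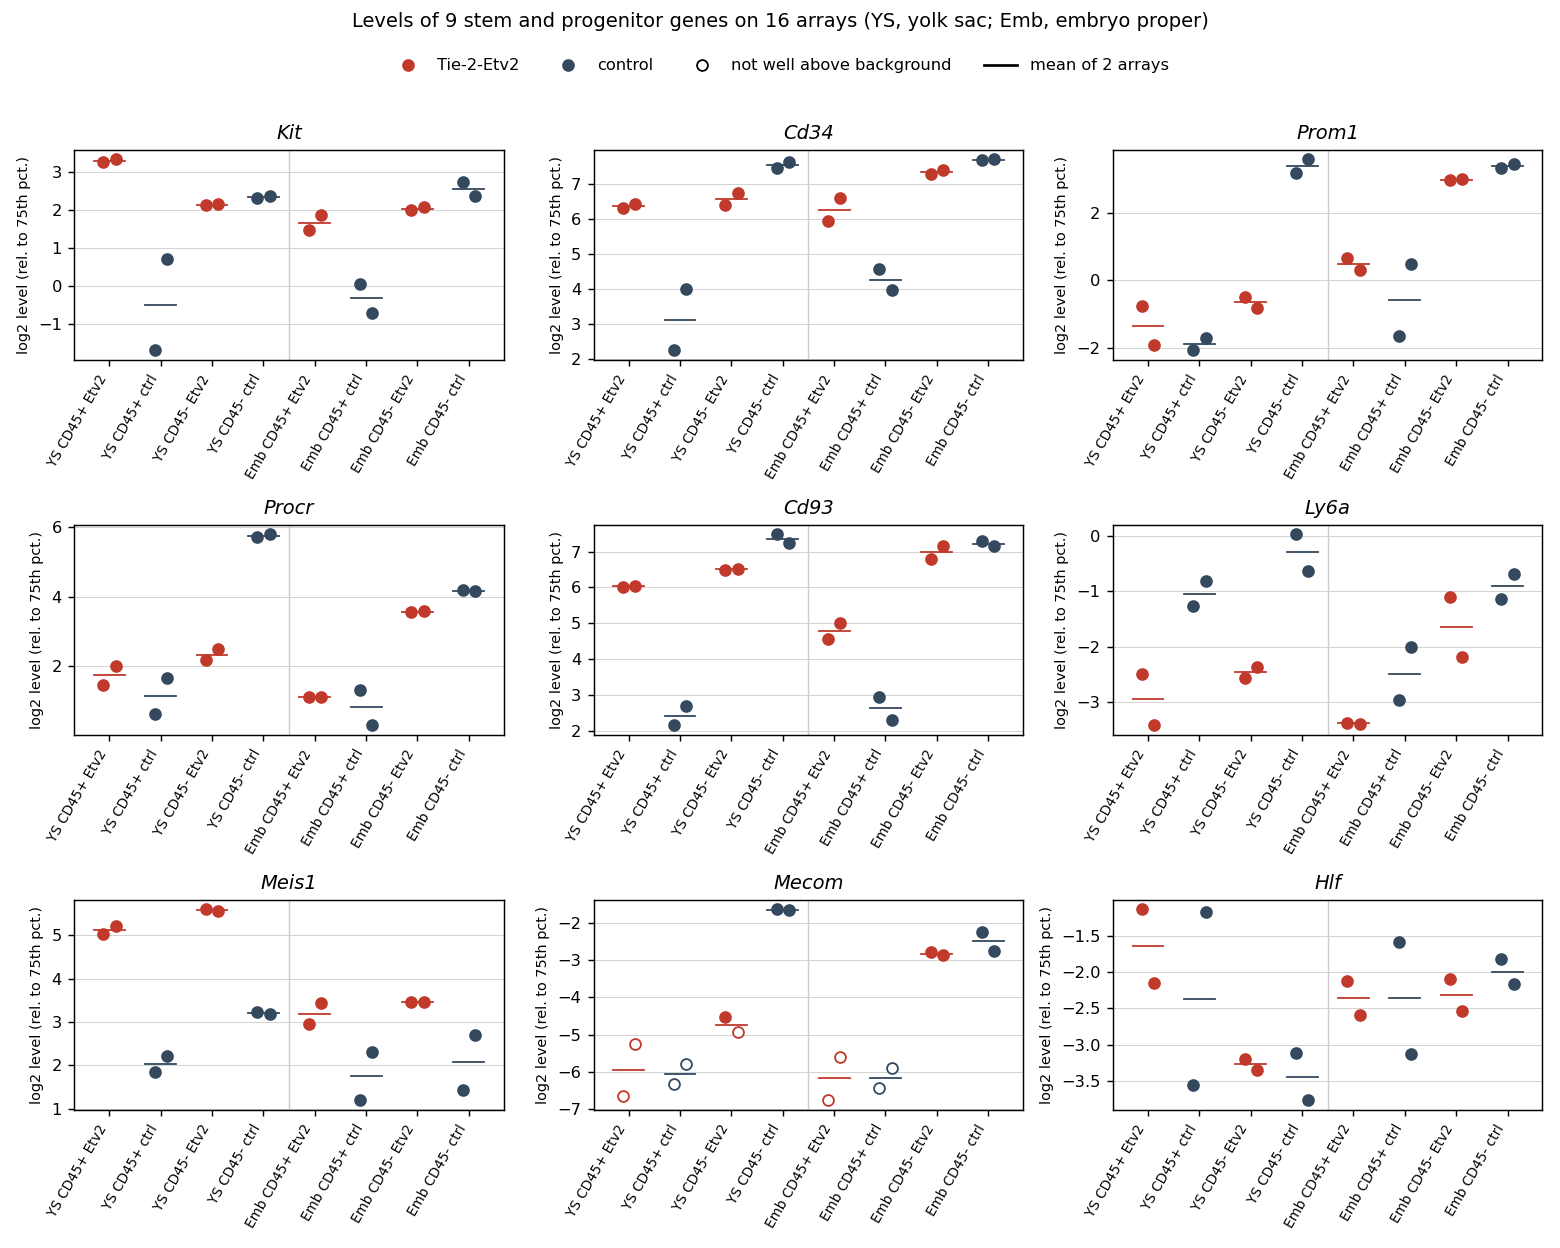
Level of each of the 9 genes (y axis, log2 relative to the array's 75th percentile; one scale per gene) on every array, by group (x axis), with the mean of the 2 arrays as a bar. Open circles are values not well above background. Meis1 is the only gene with both Tie-2-Etv2 arrays above both control arrays in all 4 populations.

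In the yolk sac CD45+ cells, Kit, Cd34, Cd93 and Meis1 rose with the transgene and Ly6a fell, which was 5 of 9 members. In that comparison 32.5% of all genes tested passed, 18.1% as higher and 14.4% as lower, and the members' median difference was 0.72, against 0.04 over all genes. In the yolk sac CD45- cells, Meis1 rose and Procr, Prom1, Mecom, Ly6a and Cd93 fell, which was 6 of 9 members. There 41.9% of all genes passed, 26.1% as higher and 15.8% as lower, and the members' median was -0.97, against 0.18 over all genes. In the embryo CD45+ cells, Cd34 and Cd93 rose and no member fell, with 3.01% of all genes passing (2.29% as higher and 0.712% as lower) and medians of 1.07 for the members and -0.03 for all genes. In the embryo CD45- cells no member passed limma's test, where 1.29% of all genes passed (1.25% as higher and 0.0325% as lower). Of the 9, 1 member, Meis1, had an unadjusted p below 0.05, for which no share of all genes is given. The medians were -0.36 for the members and -0.03 for all genes. Hlf passed in none of the 4 populations. These shares and medians over all genes are the background for each gene list below.

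**Figure D2:**
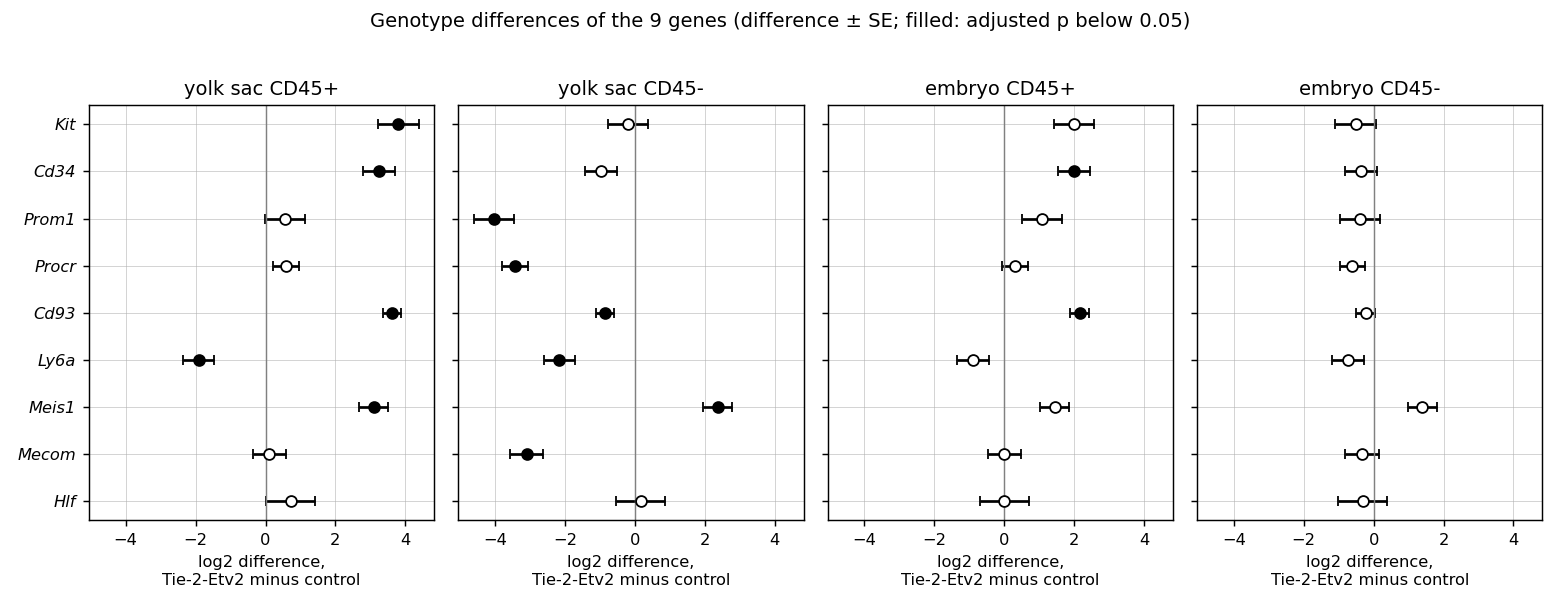
Difference between Tie-2-Etv2 and control cells (x axis, log2, ± SE) for the 9 genes (y axis) in each population, filled where adjusted p was below 0.05. Kit, Cd34, Cd93 and Meis1 stand to the right in yolk sac CD45+ cells, and Prom1, Procr and Mecom furthest to the left in yolk sac CD45- cells.

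The gates themselves were compared in control cells. In the embryo 7 of 9 members were lower in CD45+ than in CD45- cells and none was higher, all but Hlf and Meis1, where 36.6% of all genes passed (20% as higher and 16.6% as lower). In the yolk sac 7 of 9 were lower and none higher, all but Hlf and Ly6a, where 38.4% passed (22.6% as higher and 15.8% as lower). The median difference over the members was -4.42 in yolk sac controls and -3.36 in embryo controls, against 0.20 and 0.08 over all genes. The pan-endothelial marker list moved with them: all 15 of its tested genes were lower in CD45+ control cells of both tissues, with medians of -6.38 in yolk sac and -6.11 in embryo controls. All 14 macrophage markers and all 14 pan-leukocyte markers were higher there. The part of these cell types in the members' differences was not tested.

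Kit, the receptor tyrosine kinase for stem cell factor, was read by 1 probe printed at 2 spots (chr5:76052394-76052453, mm9 as in the files; no source used here places it within the gene). Kit in yolk sac CD45+ cells lay at 3.27 and 3.34 on the Tie-2-Etv2 arrays, against -1.70 and 0.70 on the control arrays. The groups did not overlap, and the transgenic pair was the highest of the 8 groups. The difference was 3.80 ± 0.58, or 13.9-fold (limma's adjusted p = 0.000688). It rested on 2 control arrays that stood far apart, and was 2.60 without control replicate 1 and 5.00 without control replicate 2, past the threshold both times. Kit in embryo CD45+ cells lay at 1.47 and 1.86 with the transgene and at 0.05 and -0.71 in controls. These did not overlap either, yet the difference of 1.99 ± 0.58 did not pass (adjusted p = 0.103). It passed with normexp, a model-based background correction (1.76, adjusted p = 0.0297), in the fit to the embryo slide alone (adjusted p = 0.0404), and in the fits without either yolk sac CD45+ control array (adjusted p = 0.0025), whose spread the shared fit otherwise uses.

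Neither CD45- comparison of Kit passed. It was 2.13 and 2.14 in Tie-2-Etv2 and 2.30 and 2.36 in control cells of the yolk sac, a difference of -0.20 ± 0.58 (adjusted p = 0.82). In the embryo it was 1.99 and 2.07 in Tie-2-Etv2 and 2.74 and 2.36 in control cells, a difference of -0.52 ± 0.58. Between the gates of control cells, CD45+ minus CD45-, Kit differed by -2.83 ± 0.58 in the yolk sac (adjusted p = 0.00284) and by -2.87 ± 0.58 in the embryo (adjusted p = 0.0027). Without yolk sac CD45+ control replicate 1 the first of these was -1.64, still past the threshold.

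Kit is also a mast cell receptor, so the mast cell list was read beside it. Of 10 listed markers 6 were tested, and the other 4 (Fcer1a, Ms4a2, Cma1 and Tpsab1) were not well above background on both arrays of any group. In yolk sac CD45+ cells 4 of the 6 rose with the transgene, namely Cpa3, Gata2, Hdc and Il1rl1, and Tpsb2 fell, while Mcpt4, a mast cell protease, was below background on all 4 arrays. Cpa3, the carboxypeptidase of mast cells and their progenitors, rose by 6.57 ± 0.96 there (adjusted p = 0.000516) and by 5.28 ± 0.96 in embryo CD45+ cells (adjusted p = 0.0147). The list's summed level was 92.4 to 117 on the Tie-2-Etv2 arrays and 4.56 to 9.27 on the control arrays of yolk sac CD45+ cells. The embryo CD45+ sums were 43.1 to 71.8 with the transgene and 4.42 to 8.96 in controls. The 7 tested melanoblast and neural crest genes held no riser in yolk sac CD45+ cells and 1 that fell, Mitf, with sums of 1.96 to 2.10 in Tie-2-Etv2 and 10.4 to 10.8 in control cells. Of 7 tested germ cell genes Dazl and Dnd1 rose and Dppa3 fell there, with sums of 4.22 to 4.88 in Tie-2-Etv2 and 4.51 to 5.52 in control cells. The part of these cell types in the Kit result was not tested. Every member read higher on yolk sac CD45+ control replicate 2 than on replicate 1, Mecom below background on both. The mast cell sum was also higher on replicate 2, 9.27 against 4.56, as was the neutrophil granule sum, 132 against 29.2. Lower on replicate 2 were the macrophage sum, 1864 against 2473, the pan-leukocyte sum, 714 against 888, and the megakaryocyte sum, 470 against 656. The pan-endothelial sum was 56.0 against 57.1. The cause of these array differences was not tested.

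Of 20 genes for the Kit ligand and for Kit signalling, 6 rose and 5 fell in yolk sac CD45+ cells, and 9 rose and 1 fell in yolk sac CD45- cells. In embryo CD45+ cells 1 rose and 1 fell, and in embryo CD45- cells 3 rose and none fell. Their medians were -0.09, 0.52, -0.11 and -0.08 in the same order, against 0.04, 0.18, -0.03 and -0.03 over all genes. Kitl, the ligand itself, fell by 2.46 ± 0.46 in yolk sac CD45+ cells (adjusted p = 0.00242), with means of -4.36 in Tie-2-Etv2 cells, where 1 of 2 arrays was well above background, and -1.90 in control cells. It fell by 2.53 ± 0.46 in yolk sac CD45- cells. Mitf, a transcription factor that acts with Kit in mast cells and pigment cells, fell by 2.88 ± 0.22 in yolk sac CD45+ cells (adjusted p = 1.78e-05) and by 0.99 ± 0.22 in embryo CD45+ cells (adjusted p = 0.0446). Plcg1, a phospholipase downstream of receptor kinases, rose by 2.30 ± 0.16 and 1.24 ± 0.16 in these same populations.

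The gene with the largest signalling change in CD45- cells was Pik3cd, the leukocyte catalytic subunit of PI 3-kinase, which rose by 4.93 ± 0.23 in the yolk sac (adjusted p = 3.68e-07) and 2.31 ± 0.23 in the embryo (adjusted p = 0.000396). Ptpn6, the blood cell phosphatase SHP-1 that damps Kit signals, rose by 4.01 ± 0.18 and 2.13 ± 0.18. Plcg2, the phospholipase of blood cells, rose by 2.69 ± 0.18 and 1.88 ± 0.18. These 3 rose in cells where Kit itself did not pass.

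Cd34, a sialomucin of blood progenitors and endothelium, had 2 probes. The brighter (chr1:196787392-196787451, mm9) lay at 6.31 and 6.43 in Tie-2-Etv2 and at 2.26 and 4.00 in control yolk sac CD45+ cells. There was no overlap, and the transgenic CD45+ arrays stood close to the CD45- arrays of the same genotype, which had 6.41 and 6.75. The difference was 3.24 ± 0.46, or 9.46-fold (adjusted p = 0.000424). Cd34 in embryo CD45+ cells lay at 5.94 and 6.61 with the transgene and at 4.58 and 3.97 in controls. That difference, 2.00 ± 0.46, passed by a small margin (adjusted p = 0.0456) and was lost in 18 of 25 alternative fits, with adjusted p up to 0.344, among them without any 1 of its own 4 arrays.

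Cd34 in yolk sac CD45- cells lay at 6.41 and 6.75 with the transgene, against 7.46 and 7.64 in controls, and the difference of -0.97 ± 0.46 did not pass (adjusted p = 0.115). It passed under quantile normalization (adjusted p = 0.0498) and without either yolk sac CD45+ control array (adjusted p = 0.0142). Its embryo CD45- levels were 7.28 and 7.39 in Tie-2-Etv2 and 7.68 and 7.71 in control cells. The CD45+ gate of controls was lower than the CD45- gate, with differences of -4.42 ± 0.46 in the yolk sac (adjusted p = 2.68e-05) and -3.42 ± 0.46 in the embryo (adjusted p = 0.000176).

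Cd93, a C-type lectin-like receptor of endothelium and early blood progenitors, followed Cd34 in shape, with the narrowest errors of the 9 (chr2:148262436-148262495, mm9). Its yolk sac CD45+ levels were 6.02 and 6.05 in Tie-2-Etv2, against 2.15 and 2.68 in control cells, a rise of 3.62 ± 0.26, or 12.3-fold (adjusted p = 1.28e-05). Its embryo CD45+ levels were 4.55 and 4.99 with the transgene and 2.94 and 2.29 in controls, a rise of 2.16 ± 0.26 (adjusted p = 0.00177). None of these groups overlapped, and neither call was lost in any of 25 alternatives.

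Cd93 in yolk sac CD45- cells went the other way, at 6.48 and 6.53 in Tie-2-Etv2 and 7.49 and 7.23 in control cells. The difference of -0.86 ± 0.26 (adjusted p = 0.0243) was lost without any 1 of its 4 arrays, with adjusted p of 0.0534 to 0.132. Its embryo CD45- levels were 6.80 and 7.17 in Tie-2-Etv2 and 7.29 and 7.14 in control cells, which overlapped. Among controls Cd93 was lower in the CD45+ than in the CD45- gate, with differences of -4.94 ± 0.26 in the yolk sac (adjusted p = 2.41e-07) and -4.60 ± 0.26 in the embryo (adjusted p = 4.11e-07).

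Prom1 (CD133), a membrane-protrusion glycoprotein of stem cells and epithelia, showed the largest fall of the 9. Its brighter probe (chr5:44384861-44384920, mm9) lay at -0.49 and -0.82 in Tie-2-Etv2 yolk sac CD45- cells, against 3.18 and 3.58 in controls. The difference of -4.03 ± 0.57 left 0.061 of the control signal (adjusted p = 0.000358), and the groups were far apart. Prom1 in embryo CD45- cells was 2.97 and 3.00 in Tie-2-Etv2 and 3.31 and 3.44 in control cells, a difference of -0.39 ± 0.57 that did not pass. The yolk sac effect minus the embryo effect was -3.64 ± 0.81 (adjusted p = 0.0158), which was lost without embryo CD45- Tie-2-Etv2 replicate 1 (adjusted p = 0.0504) and without yolk sac CD45- control replicate 2 (adjusted p = 0.0602).

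In CD45+ cells Prom1 lay at -0.76 and -1.94 in Tie-2-Etv2 and -2.08 and -1.72 in control cells of the yolk sac, and at 0.65 and 0.31 in Tie-2-Etv2 and -1.65 and 0.47 in control cells of the embryo. Both pairs of groups overlapped and neither difference passed, although the embryo one did so without control replicate 2 (2.13, adjusted p = 0.0264). Without control replicate 1 it was 0.0058 (adjusted p = 0.998). Between the gates of control cells, CD45+ minus CD45-, Prom1 differed by -5.28 in the yolk sac (adjusted p = 3.75e-05) and by -3.96 in the embryo (adjusted p = 0.000299).

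Epithelial and neural progenitor markers were read beside Prom1. Of 7 tested epithelial genes 3 keratins, Krt8, Krt18 and Krt19, fell in yolk sac CD45- cells and none rose (median -2.54), with sums of 19.1 to 46.1 in Tie-2-Etv2 and 193 to 246 in control cells. Of 7 tested neural progenitor genes Nes, the filament protein nestin, fell by 2.99 ± 0.24 there (adjusted p = 1.03e-05) and none rose (median -0.01), with sums of 3.45 to 4.46 in Tie-2-Etv2 and 24.4 to 26.5 in control cells. In embryo CD45- cells no gene of either list passed. The part of these cell types in the Prom1 result was not tested.

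Procr, the endothelial protein C receptor, is a marker of stem cells and of vessels that carries protein C to the thrombin-thrombomodulin complex. Its probe (chr2:155580945-155581004, mm9) lay at 2.18 and 2.48 in Tie-2-Etv2 yolk sac CD45- cells, against 5.72 and 5.80 in controls, which are the highest of its 8 groups. The difference of -3.43 ± 0.37 left 0.0929 of the control signal (adjusted p = 7.01e-05). Procr in embryo CD45- cells was 3.56 and 3.58 with the transgene and 4.18 and 4.17 without it. These did not overlap, but the difference of -0.61 ± 0.37 did not pass (adjusted p = 0.906). The yolk sac effect minus the embryo effect was -2.82 ± 0.52 (adjusted p = 0.0078), past the threshold in all 23 alternatives. In CD45+ cells Procr was 1.46 and 2.00 in Tie-2-Etv2 and 0.63 and 1.66 in control yolk sac cells, and 1.12 and 1.11 in Tie-2-Etv2 and 1.32 and 0.30 in control embryo cells, overlapping in both. Its gate difference in controls was -4.62 in the yolk sac (adjusted p = 4.18e-06) and -3.36 in the embryo (adjusted p = 4.34e-05).

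Of 11 tested genes of the protein C and thrombin pathway, 1 rose and 6 fell in yolk sac CD45- cells (median -1.45). There 26.1% of all genes rose and 15.8% fell. In yolk sac CD45+ cells 3 of the 11 rose and 2 fell (median -0.28), where 18.1% of all genes rose and 14.4% fell. In each gate of the embryo 1 rose and none fell. F3, tissue factor, which starts coagulation, fell by 4.93 ± 0.95 in yolk sac CD45- cells (adjusted p = 0.00217). Thbd, thrombomodulin, which with Procr turns thrombin toward protein C, fell by 3.17 ± 0.42 (adjusted p = 0.000246), standing at 2.40 in Tie-2-Etv2 and 5.57 in control cells. F2rl1, a protease-activated receptor, was at least 2.39-fold lower. F5, the cofactor of factor Xa, was the member of the list that rose in all 4 populations, by 2.14 ± 0.35 in yolk sac CD45+, 2.60 in yolk sac CD45-, 2.29 ± 0.35 in embryo CD45+ and 1.98 ± 0.35 in embryo CD45- cells. F2r, the thrombin receptor, rose by 4.78 ± 0.37 in yolk sac CD45+ cells (adjusted p = 1.66e-05).

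Ly6a (Sca-1), a GPI-anchored protein of adult stem cells and of some endothelium, had a probe at chr15:74825553-74825612 (mm9). It lay at -2.56 and -2.36 in Tie-2-Etv2 and at 0.04 and -0.62 in control yolk sac CD45- cells, a difference of -2.16 ± 0.45 (adjusted p = 0.00322). In yolk sac CD45+ cells it lay at -2.49 and -3.41 with the transgene and at -1.26 and -0.82 in controls, a difference of -1.91 ± 0.45 (adjusted p = 0.00794). It was the 1 member that fell in both yolk sac gates, without overlap in either. The CD45+ fall was lost without Tie-2-Etv2 replicate 2 (-1.45, adjusted p = 0.0724) and was -1.10 with normexp, still past the threshold.

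Ly6a in embryo CD45+ cells was -3.38 and -3.39 in Tie-2-Etv2 and -2.97 and -2.0 in control cells, a difference of -0.90 ± 0.45 that did not pass (adjusted p = 0.37). Its embryo CD45- levels were -1.11 and -2.18 in Tie-2-Etv2 and -1.13 and -0.68 in control cells, which overlapped. Among embryo controls Ly6a was lower in CD45+ than in CD45- cells, with a difference of -1.58 ± 0.45 (adjusted p = 0.0179), a call lost without embryo CD45- control replicate 2 (adjusted p = 0.0983) or CD45+ control replicate 1 (adjusted p = 0.144), and of -0.84 with normexp.

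Of 8 other Ly6 genes listed 5 were tested. In yolk sac CD45- cells 1 rose and 3 fell (median -1.99): Ly6h by 3.30 ± 0.44, Gpihbp1, which anchors lipoprotein lipase on capillaries, by 2.19 ± 0.31, and Ly6c1, a vessel and monocyte protein, by 1.99 ± 0.55. In yolk sac CD45+ cells Ly6c1 fell by 1.60 ± 0.55 (adjusted p = 0.0453). None of the 5 passed in either embryo gate.

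Meis1, a TALE homeodomain factor that works with PBX and HOX proteins in stem cells and megakaryocytes, had both transgenic arrays above both controls in every one of the 4 populations. No test was made of that count, and 5.49% of all genes tested had the same pattern, while 3.53% had the opposite one. Its probe lay at chr11:18780695-18780754 (mm9). Meis1 in yolk sac CD45- cells was 5.61 and 5.56 with the transgene, against 3.23 and 3.19 in controls, a rise of 2.37 ± 0.41, or 5.18-fold (adjusted p = 0.00121). Its yolk sac CD45+ levels were 5.02 and 5.22, against 1.85 and 2.21 in controls, a rise of 3.09 ± 0.41, or 8.53-fold (adjusted p = 0.000317). Neither call was lost in 25 alternatives, and the Meis1 effects in the 2 gates differed by 0.72 ± 0.59 (adjusted p = 0.483).

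In the embryo Meis1 was 2.96 and 3.43 in Tie-2-Etv2 and 1.20 and 2.30 in control CD45+ cells, a difference of 1.44 ± 0.41 (adjusted p = 0.0992). Its embryo CD45- levels were 3.46 and 3.47 in Tie-2-Etv2 and 1.44 and 2.70 in control cells, a difference of 1.39 ± 0.41 (adjusted p = 0.277). Neither passed. The CD45+ difference was 1.99 without CD45+ control replicate 2 (adjusted p = 0.0366) and 0.89 without CD45+ control replicate 1 (adjusted p = 0.414), and without either embryo CD45- control array it kept its size (adjusted p = 0.0465). The CD45- difference was 2.03 without CD45- control replicate 2 (adjusted p = 0.0389) and 0.76 without CD45- control replicate 1, which did not pass. Among controls Meis1 was lower in the CD45+ than in the CD45- gate of the yolk sac, with a difference of -1.18 ± 0.41 (adjusted p = 0.045), which was lost in 13 of 24 alternatives, with adjusted p up to 0.178.

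Markers of several blood cell types moved with Meis1 in yolk sac CD45- cells. There 13 of 14 pan-leukocyte and 10 of 12 megakaryocyte markers rose, with medians of 6.34 and 5.81. Their summed levels were 460 to 637 and 906 to 1178 in Tie-2-Etv2 cells, against 39.3 to 44.7 and 241 to 243 in control cells. Ptprc itself rose by at least 3.33-fold in this gate, which is labelled CD45-. The neutrophil granule sum was 80.6 to 101 there in Tie-2-Etv2 and 1.97 to 2.38 in control cells. The mast cell sum was 23.5 to 25.3 in Tie-2-Etv2 and 8.78 to 10.4 in control cells. The erythroid and lymphoid sums went the other way in yolk sac CD45- cells. The erythroid sum was 702 to 1032 in Tie-2-Etv2 and 1209 to 1732 in control cells. The lymphoid sum was 7.08 to 7.75 in Tie-2-Etv2 and 17.4 to 20.0 in control cells. In CD45+ cells, where Meis1 was also higher on both transgenic arrays, the megakaryocyte sum was lower with the transgene: 230 to 312 in Tie-2-Etv2 and 470 to 656 in control cells of the yolk sac, and 209 to 231 in Tie-2-Etv2 and 284 to 360 in control cells of the embryo. By gene, 8 of the 12 megakaryocyte markers rose and 3 fell in yolk sac CD45+ cells, and 7 rose and none fell in embryo CD45+ cells. The part of these cells in the Meis1 result was not tested.

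Of 15 Meis, Pbx, Pknox and Hox genes listed as partners, 2 rose and 10 fell in yolk sac CD45- cells, with a median of -2.20. Hoxa7, Hoxa10 and Hoxa5, HOX proteins of the A cluster, fell there by 3.47 ± 0.37, 3.43 ± 0.57 and 3.32 ± 0.50. In yolk sac CD45+ cells 3 rose and 3 fell (median 0.21): Meis2, a relative of Meis1, fell by 2.39 ± 0.59 (adjusted p = 0.01), and Hoxa7 rose by 1.34 ± 0.37 (adjusted p = 0.0182). None passed in either embryo gate. Of all genes, 26.1% rose and 15.8% fell in yolk sac CD45- cells. In yolk sac CD45+ cells 18.1% of all genes rose and 14.4% fell.

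Promoter sequences were looked up because the transgene encodes an ETS factor, whose family binds DNA around a GGAA core. The RefSeq table of build GRCm38.p6 held 300-base windows, from 250 bases before to 50 after a gene's start, for 7 of the 9 members, 10 windows in all. Cd93 and Ly6a had none. The windows of Meis1, the member that rose in both yolk sac gates, and of Procr, which fell in yolk sac CD45- cells, are printed 5′ to 3′ on the gene's strand, with each GGAA on either strand in capitals (TTCC where it lies on the opposite strand).

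Meis1, chr11:19018920-19019219, minus strand: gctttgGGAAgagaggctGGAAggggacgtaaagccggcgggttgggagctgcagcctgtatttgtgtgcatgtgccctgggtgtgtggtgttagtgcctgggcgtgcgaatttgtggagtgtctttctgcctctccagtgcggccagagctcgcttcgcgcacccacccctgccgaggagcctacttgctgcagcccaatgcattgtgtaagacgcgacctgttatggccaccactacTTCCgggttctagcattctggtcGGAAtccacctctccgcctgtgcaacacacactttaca

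Procr, chr2:155750967-155751266, plus strand: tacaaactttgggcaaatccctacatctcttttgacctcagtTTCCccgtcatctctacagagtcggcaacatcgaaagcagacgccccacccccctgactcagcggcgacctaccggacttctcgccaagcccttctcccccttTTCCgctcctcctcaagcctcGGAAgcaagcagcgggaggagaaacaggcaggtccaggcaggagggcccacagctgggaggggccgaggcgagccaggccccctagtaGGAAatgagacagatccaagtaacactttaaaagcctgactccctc

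Each of these 2 windows held 4 matches to GGAA. All 10 member windows held at least 1, as did 96% of 32851 windows in the table, whose median was 3. The longer ETS consensus CCGGAAGT, which contains GGAA, was searched on both strands as well. It occurred once in the Meis1 window and in no other member window, while 3.89% of all windows held it. The motif AACAGGAA, another longer match that contains GGAA, was in no member window and in 2.65% of all windows. Its shorter part CAGGAA was found in 30.6% of all windows. Among the members it matched 2 times in the Cd34 window, and once each in the Hlf window and 1 Prom1 window. A match describes letters in the window and not a bound site.

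Mecom, the zinc finger factor Evi1 and its longer PRDM3 form, was read by a probe at chr3:29876185-29876244 and a dimmer one at chr3:30135491-30135550 (mm9). The brighter probe lay at -4.53 and -4.94 in Tie-2-Etv2 yolk sac CD45- cells, against -1.62 and -1.65 in controls. One of the transgenic values was not well above background. Mecom fell by 3.10 ± 0.48 (adjusted p = 0.000578), a difference that was -1.20 with normexp, still past the threshold. Mecom in embryo CD45- cells was -2.78 and -2.87 in Tie-2-Etv2 and -2.22 and -2.75 in control cells, a difference of -0.34 ± 0.48. The yolk sac effect minus the embryo effect was -2.76 ± 0.67 (adjusted p = 0.0225). This was lost in 8 of 22 alternatives, with adjusted p up to 0.0693, among them quantile normalization and leaving out any 1 of the 8 CD45- arrays except embryo control replicate 1, and it was -1.18 with normexp.

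No CD45+ array, of either genotype or tissue, read Mecom well above background. It was at least 6.73-fold lower in CD45+ than in CD45- control cells of the yolk sac (adjusted p = 3.57e-05) and at least 4.16-fold lower in those of the embryo (adjusted p = 0.000139). Each bound sets the CD45- mean against the lowest signal that counted as above background on the CD45+ arrays. With normexp the measured gate differences of Mecom were -1.06 and -0.65, both past the threshold.

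Hlf, a PAR bZIP factor of long-lived stem cells, did not pass in any comparison (probe at chr11:90200696-90200755, mm9). Its arrays overlapped in every genotype comparison: -1.13 and -2.15 in Tie-2-Etv2 and -3.55 and -1.18 in control yolk sac CD45+ cells, and -3.20 and -3.34 in Tie-2-Etv2 and -3.12 and -3.76 in control yolk sac CD45- cells. In the embryo it was -2.12 and -2.60 in Tie-2-Etv2 and -1.59 and -3.13 in control CD45+ cells, and -2.10 and -2.53 in Tie-2-Etv2 and -1.83 and -2.17 in control CD45- cells. The widest difference with the transgene, 0.72 ± 0.71 in yolk sac CD45+ cells, was 1.91 without control replicate 2 (adjusted p = 0.042) and -0.47 without control replicate 1 (adjusted p = 0.647). The 2 control arrays there differed more than any 2 group means.

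Of 11 relatives or partners of Mecom and Hlf, 4 rose and 1 fell in yolk sac CD45+ cells, where 32.5% of all genes passed. In yolk sac CD45- cells 4 rose and 2 fell, where 41.9% of all genes passed. The list's medians were 0.14 and 0.43 in the same order. In embryo CD45+ cells 1 rose and 1 fell, and in embryo CD45- cells none passed. Prdm16, the PR domain factor nearest to Mecom, fell by 2.56 ± 0.70 in yolk sac CD45- cells (adjusted p = 0.0141). Gata2, a zinc finger factor of stem cells and mast cells that Mecom regulates, rose by 5.83 ± 0.48 in yolk sac CD45+ (adjusted p = 2.29e-05) and 3.45 ± 0.48 in embryo CD45+ cells (adjusted p = 0.00364). Prdm2 fell by about 1 unit in both yolk sac gates, by 1.04 ± 0.16 in CD45+ and 1.05 ± 0.16 in CD45- cells.

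The transgene's effects in the 2 gates were then set against each other. In the yolk sac the effect was higher in CD45+ than in CD45- cells for 6 of 9 members and lower for none, where 18.4% of all genes passed (7.89% as higher and 10.5% as lower). The median over the members was 4.00, against -0.14 over all genes. Prom1 differed by 4.58 ± 0.81 (adjusted p = 0.00319), Cd93 by 4.47 ± 0.37 (adjusted p = 3.83e-05), Cd34 by 4.21 ± 0.65 (adjusted p = 0.00147), Procr by 4.01 ± 0.52 (adjusted p = 0.000533), Kit by 4.00 ± 0.82 (adjusted p = 0.00693) and Mecom by 3.21 ± 0.67 (adjusted p = 0.00785). They came about in 2 ways. For Kit, Cd34 and Cd93 most of it was a rise in CD45+ cells, while for Prom1, Procr and Mecom it was a fall in CD45- cells. Mecom was below background in CD45+ cells of both genotypes, and its gate effects differed by 1.07 with normexp, still past the threshold.

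**Figure D3:**
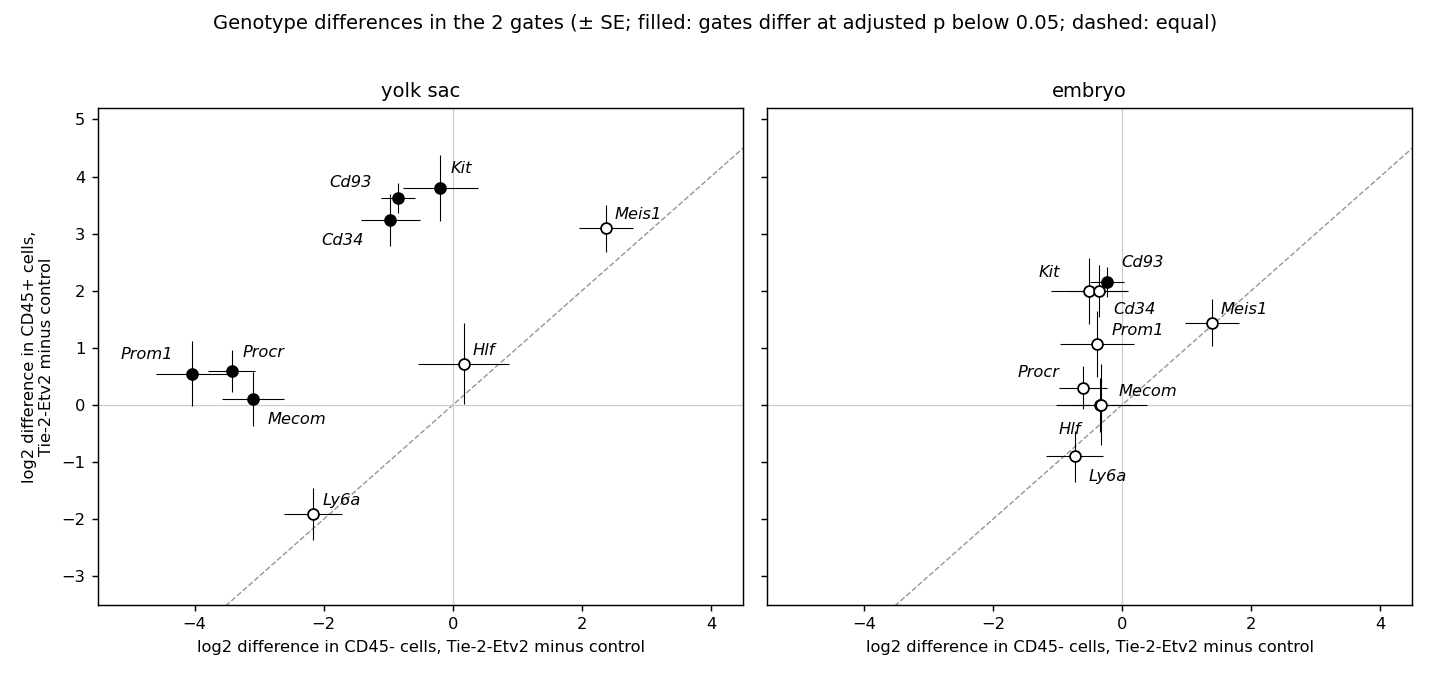
Difference between Tie-2-Etv2 and control cells in CD45+ (y axis) against that in CD45- cells (x axis) for the 9 genes, log2, ± SE, yolk sac left and embryo right. Points on the dashed line have equal differences in both gates; filled points had gate effects that differed at adjusted p below 0.05. In the yolk sac Meis1 stands high and Ly6a low in both gates, Kit, Cd34 and Cd93 high in CD45+ cells, and Prom1, Procr and Mecom low in CD45- cells.

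In the embryo the gate effects differed for 1 member, Cd93, by 2.39 ± 0.37 (adjusted p = 0.0111), where 1.14% of all genes passed (0.57% as higher and 0.574% as lower). It was lost in the fit to the embryo slide alone (adjusted p = 0.0954) and without embryo CD45- control replicate 1, CD45- Tie-2-Etv2 replicate 1 or CD45+ Tie-2-Etv2 replicate 2 (adjusted p of 0.051 to 0.0533). Cd34 and Kit differed by 2.36 ± 0.65 and 2.51 ± 0.82 without passing (adjusted p = 0.172 and 0.324), and both passed without either yolk sac CD45+ control array (adjusted p = 0.0139 and 0.00879).

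Between tissues, the CD45- effect was lower in the yolk sac than in the embryo for 3 of 9 members, Prom1, Procr and Mecom, and higher for none, where 15.9% of all genes passed (9.54% as higher and 6.4% as lower). In CD45+ cells the effects of the 2 tissues differed for no member by limma's test. There 3.13% of all genes passed (1.1% as higher and 2.03% as lower), and 2 members, Meis1 and Cd93, had an unadjusted p below 0.05. In control cells Procr alone differed between tissues in the CD45- gate, where 11.6% of all genes passed, with 5.46% as higher and 6.09% as lower. It was higher in the yolk sac, at 5.72 and 5.80, than in the embryo, at 4.18 and 4.17, by 1.58 ± 0.37 (adjusted p = 0.0219), and the call was lost without any 1 of these 4 arrays (adjusted p up to 0.118). In the CD45+ gate no member differed between control tissues, where 1.7% of all genes passed (0.614% as higher and 1.09% as lower). There 3 members, Cd34, Ly6a and Prom1, had an unadjusted p below 0.05. The shares of all genes are at adjusted p, so they are no background for counts at unadjusted p.

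Endothelial markers moved in the direction of Cd34 and Cd93 in both yolk sac gates and in embryo CD45+ cells. The fall of Cd34 in yolk sac CD45- cells did not pass. In CD45+ cells 13 of 15 endothelial markers rose with the transgene in the yolk sac (median 2.96) and 9 of 15 in the embryo (median 1.49), and none fell. Their summed level was 368 to 371 in Tie-2-Etv2 and 56.0 to 57.1 in control cells of the yolk sac CD45+ gate, and 166 to 217 in Tie-2-Etv2 and 53.7 to 72.5 in control cells of the embryo CD45+ gate. In yolk sac CD45- cells 10 of 15 fell and none rose (median -1.20), with sums of 737 to 764 in Tie-2-Etv2 and 1190 to 1334 in control cells. None passed in embryo CD45- cells. Cdh5 stood at 2.99 in Tie-2-Etv2 and -0.26 in control yolk sac CD45+ cells, a rise of 3.25 ± 0.30 (adjusted p = 4.14e-05). Other members also known from endothelium did not rise there. Procr differed by 0.59 ± 0.37 and Mecom, below background, by 0.11 ± 0.48, without passing, and Ly6a fell by 1.91 ± 0.45. In yolk sac CD45- cells Procr, Mecom and Ly6a all fell.

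**Figure D4:**
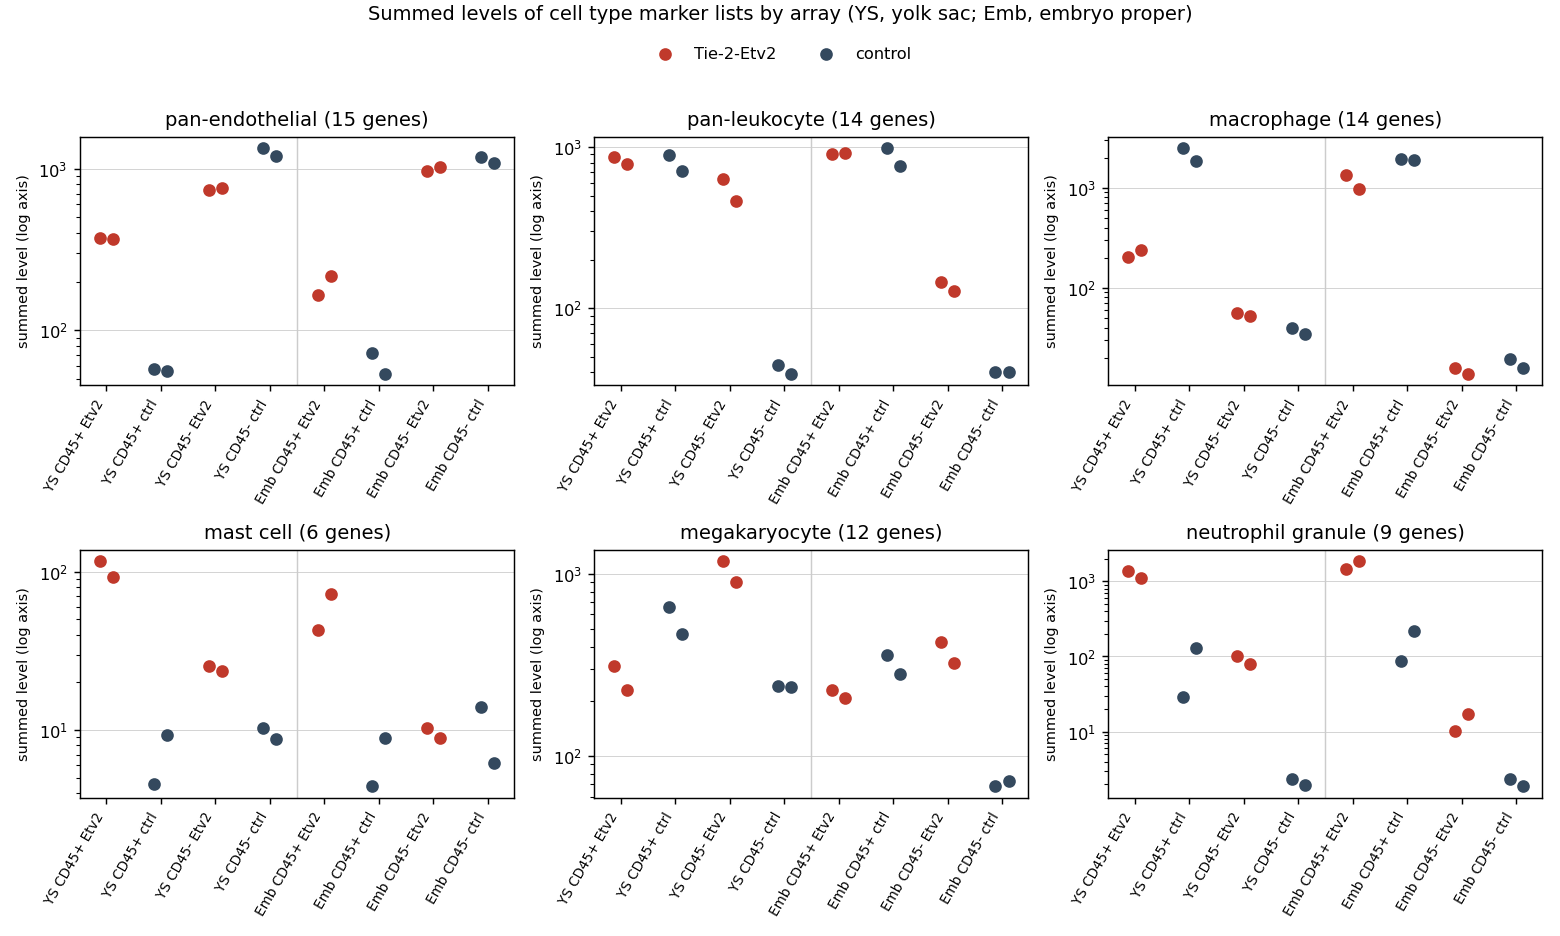
Summed level (y axis, log axis, linear signal relative to the array's 75th percentile) of 6 marker lists on each array, by group (x axis). In yolk sac CD45+ cells the endothelial, mast cell and neutrophil granule sums are higher, and the macrophage sum lower, with the transgene than in controls; in yolk sac CD45- cells the leukocyte and megakaryocyte sums are higher and the endothelial sum lower.

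Macrophage markers moved the other way in yolk sac CD45+ cells: 13 of 14 fell, with sums of 204 to 240 in Tie-2-Etv2 and 1864 to 2473 in control cells, and Csf1r, the macrophage growth factor receptor, stood at 5.80 in Tie-2-Etv2 and 9.13 in control cells. In embryo CD45+ cells 1 rose and 1 fell, with sums of 963 to 1331 in Tie-2-Etv2 and 1910 to 1937 in control cells. Neutrophil granule genes rose in yolk sac CD45+ cells for 7 of 9. Their sums there were 1093 to 1378 in Tie-2-Etv2 and 29.2 to 132 in control cells. In embryo CD45+ cells these sums were 1441 to 1860 in Tie-2-Etv2 and 88.2 to 215 in control cells. Mpo, the myeloperoxidase of granulocyte progenitors, was 9.0 in Tie-2-Etv2 yolk sac CD45+ cells and 5.32 in their controls. The part of endothelial, macrophage and granulocyte RNA in the results for Kit, Cd34, Cd93, Procr, Prom1, Mecom and Ly6a was not tested.

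A wider list of 40 other stem and progenitor genes gave the setting. In yolk sac CD45+ cells 23 rose and 2 fell (median 1.19), where 18.1% of all genes rose and 14.4% fell (median 0.04). In yolk sac CD45- cells 19 rose and 9 fell (median 0.68), where 26.1% of all genes rose and 15.8% fell (median 0.18). In embryo CD45+ cells 9 rose and none fell (median 0.68), where 2.29% of all genes rose and 0.712% fell. In embryo CD45- cells 6 rose and none fell (median 0.18), where 1.25% of all genes rose and 0.0325% fell. Itga2b (CD41), the platelet and early blood integrin, rose in all 4, by 7.17 ± 0.47 in yolk sac CD45+, 5.38 in yolk sac CD45-, 4.78 ± 0.47 in embryo CD45+ and 4.33 ± 0.47 in embryo CD45- cells. Gfi1b, a repressor of early blood and megakaryocyte cells, rose by 6.08 ± 0.40 in yolk sac CD45- cells (adjusted p = 3.23e-06).

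Adgrg1 (GPR56), an adhesion receptor of stem cells, rose by 4.97 ± 0.56 in CD45+ and 4.95 ± 0.56 in CD45- cells of the yolk sac (adjusted p = 0.000116 and 8.82e-05). Spi1 (PU.1), a myeloid transcription factor, was at least 30.2-fold higher in Tie-2-Etv2 than in control yolk sac CD45- cells. Gfi1, a repressor that acts in blood-forming endothelium, rose by 3.13 ± 0.71 in embryo CD45+ cells (adjusted p = 0.0446) and was at least 9.59-fold lower in Tie-2-Etv2 than in control yolk sac CD45- cells.

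The second probes of Cd34, Prom1 and Mecom were fitted over all 34126 kept probes. The 2 probes of Mecom are annotated to different RefSeq transcripts, as are the 2 of Prom1, while both Cd34 probes share a transcript. For each of these 3 genes 1 probe is shown, to tell apart the places at which the gene was read. Each printed probe has at least 1 reading frame free of stop codons, and no source used here says whether it lies in coding sequence. Each is 60 bases, 5′ to 3′ as the files give it.

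Cd34, second probe, chr1:196785280-196785339 (mm9): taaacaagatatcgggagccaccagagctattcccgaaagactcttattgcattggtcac

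Prom1, second probe, chr5:44397410-44397469 (mm9): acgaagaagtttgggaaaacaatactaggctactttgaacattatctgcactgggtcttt

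Mecom, brighter probe, chr3:29876185-29876244 (mm9): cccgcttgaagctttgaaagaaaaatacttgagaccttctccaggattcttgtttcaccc

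The second Cd34 probe rose by 2.87 ± 0.57 in yolk sac CD45+ cells (adjusted p = 0.00355). Its levels there were 0.51 and 0.61 in Tie-2-Etv2 and -3.42 and -1.20 in control cells. The same probe differed in embryo CD45+ cells by 1.85 ± 0.57 and did not pass (adjusted p = 0.133), where the brighter probe had passed. The second Prom1 probe fell by 4.05 ± 0.80 in yolk sac CD45- cells (adjusted p = 0.00261), at -3.93 and -4.39 in Tie-2-Etv2 and -0.59 and 0.38 in control cells. Its yolk sac effect minus its embryo effect in CD45- cells was -3.69 ± 1.13 and did not pass (adjusted p = 0.0537), where the brighter probe had passed. The second Mecom probe was below background on both Tie-2-Etv2 arrays of that population and at -3.93 and -3.68 in controls, so it was at least 2.40-fold lower (adjusted p = 0.00133).

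**Figure D5:**
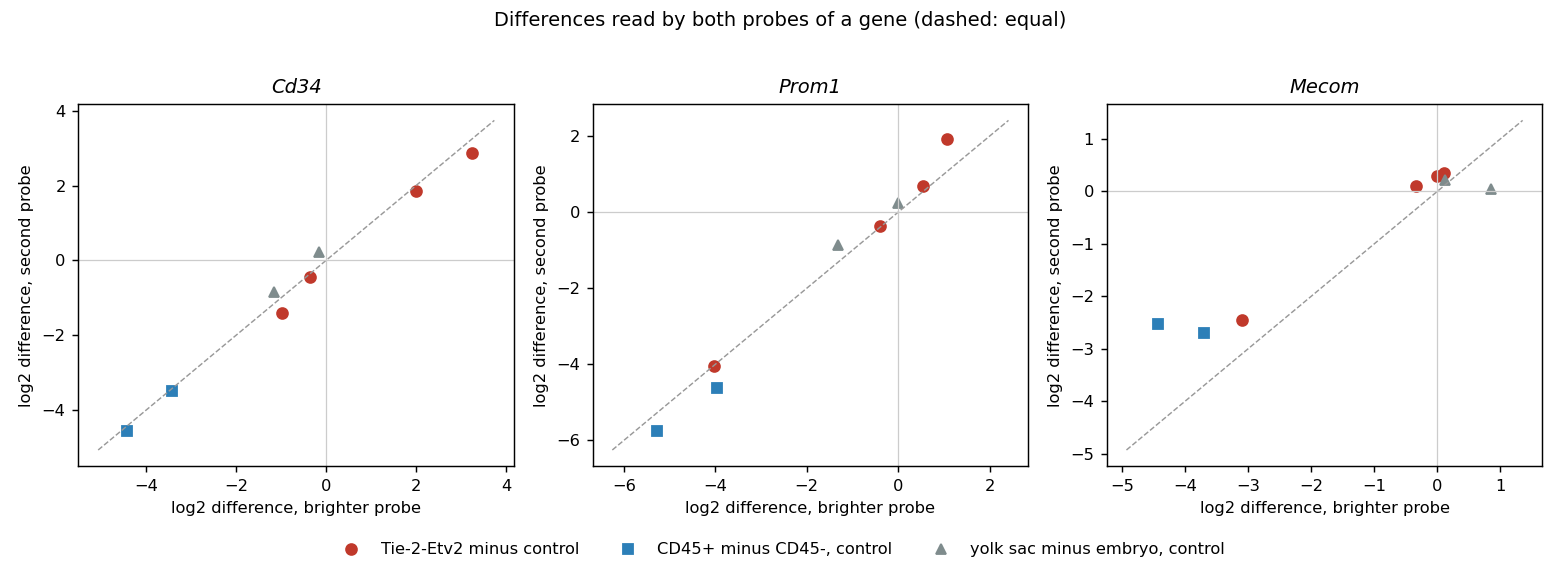
Log2 differences read by the second probe (y axis) against the brighter probe (x axis) of Cd34, Prom1 and Mecom in 8 comparisons: genotype in 4 populations, gate in 2 tissues and tissue in 2 gates. Points near the dashed line were read alike by both probes; the Mecom gate differences rest on CD45+ signals below background for both probes.

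The order of the groups differed between members. Kit was highest in Tie-2-Etv2 yolk sac CD45+ cells, above all 14 other arrays, and Meis1 in Tie-2-Etv2 yolk sac CD45- cells and next in Tie-2-Etv2 yolk sac CD45+ cells, again without overlap. Cd34 and Cd93 were highest in the 2 control CD45- groups, which overlapped for Cd93 and not for Cd34, and lowest in the 2 control CD45+ groups, which overlapped for both. Procr, Mecom and Ly6a were highest in control yolk sac CD45- cells and next in control embryo CD45- cells, without overlap between these, and Prom1 was level in the same 2 groups, which overlapped. For Procr and Mecom the 4 CD45+ groups filled the lowest places and each overlapped its neighbour.

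Among 16523 other genes with a symbol, those whose profile over the 16 arrays lay nearest to a member's were found by the root mean square difference between profiles centred on their means, in log2 units. The nearest to Kit was Mbnl3 (0.460), followed by Zfp711 (0.503) and Gimap5 (0.504). For Meis1 they were Nxpe3 (0.366), Ston2 (0.388) and Car2 (0.402), and for Cd93 Sytl2 (0.397), N4bp3 (0.408) and Nrarp (0.414). Calcrl (0.409) was nearest to Procr, Ece1 (0.437) to Mecom, Dach1 (0.459) to Prom1, Rai14 (0.504) to Cd34 and Maml2 (0.503) to Ly6a. A member's own standard deviation over the arrays was 1.08 for Ly6a and 1.89 for Cd93. The same distance is thus a poorer likeness for Ly6a. Among the members themselves Mecom and Procr lay nearest to each other (0.567), then Cd34 and Cd93 (0.610) and Cd34 and Kit (0.760). Mecom was below background on every CD45+ array, so part of its profile in these distances is background signal. All arrays of a gate and tissue share a slide, so these are descriptions of 16 arrays.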

How the data were processed

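RNA from 16 sorted samples was measured on 1-colour Agilent arrays, 1 array per sample and 2 per group. The deposited scanner files hold spot intensities that Agilent Feature Extraction 10.7, per the submitters' processing notes, corrected within each array for background and for a gradient across the slide, per the file headers. The processed intensity was divided by its array's 75th percentile before log2 was taken. Control spots were left out, spots of a probe were averaged, the 34126 probes were kept that both arrays of some group showed well above background, and each gene was read by its brightest kept probe (24578 genes). Groups were compared with limma 3.58.1 in R 4.3.3, fitted over all 16 arrays with 8 residual degrees of freedom, with Benjamini-Hochberg adjustment over all genes at 0.05. The scripts were tested on simulated data. Where every array of a group was below background, a limit is given in place of a fold. The number of arrays limits the precision.

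Groups came from the labels. The 9 genes and all lists were chosen with earlier results of these data known. The named genes were the members, checks of the labels, markers given beside a result, and nearest profiles, up to 3 per member and none for Hlf. Also named were at most 3 genes per list and genotype comparison, with the largest difference past the threshold and no overlap. Second probes were fitted separately over all kept probes.

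The deposited value table holds log2 values centred per probe and shifted by a constant per array, for reasons not given in the sources used here. Its array medians (replicates 1 and 2) were -0.00892 and -0.121 for Tie-2-Etv2 and 0.146 and 0.00328 for control yolk sac CD45+ cells. They were 0.0155 and -0.00448 for Tie-2-Etv2 and 0.0847 and -0.183 for control yolk sac CD45- cells. They were 0.00544 and -0.0324 for Tie-2-Etv2 and 0.165 and -0.0836 for control embryo CD45+ cells. They were 0.028 and -0.0323 for Tie-2-Etv2 and 0.175 and -0.0935 for control embryo CD45- cells. The alternatives were normexp background correction (offset 50), quantile normalization, a percentile over probes detected on every array, other filters on dim probes, the mean of a gene's probes, each slide alone, the value table, a replicate block and leaving out each array in turn. Promoter windows were counted with Python 3.11.15, pandas 2.3.3 and numpy 2.4.6, and figures drawn with matplotlib 3.10.9.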

Additional observations from a re-analysis of the deposited data

Results flagged for a closer look

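In the yolk sac the difference between Tie-2-Etv2 and control cells was higher in the CD45+ than in the CD45- gate for 6 members, by limma's test of the difference between the 2 gates. It was higher by 4.58 for Prom1, 4.47 for Cd93, 4.21 for Cd34, 4.01 for Procr, 4.00 for Kit and 3.21 for Mecom, which was below background in CD45+ cells of both genotypes. In that comparison 18.4% of all genes passed, 7.89% as higher and 10.5% as lower. In the embryo Cd93 alone differed between the gates, by 2.39, where 1.14% of all genes passed. That call was lost in the fit to the embryo slide alone and without some single arrays.

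In CD45- cells the yolk sac difference was lower than the embryo difference for 3 members, by limma's test between tissues: -3.64 for Prom1, -2.82 for Procr and -2.76 for Mecom. There 15.9% of all genes passed, 9.54% as higher and 6.4% as lower. The Prom1 and Mecom calls were lost in some alternative fits, and the Procr call in none. The second Prom1 probe did not pass. Tissue and slide cannot be told apart, though each genotype difference lies within 1 slide.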

How the results depend on the processing

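No member's called difference changed sign under any alternative. In embryo CD45+ cells the 2 members past the threshold became 1 under quantile normalization, the percentile over detected probes, no filter on dim probes and the mean of probes, and 1 to 3 when single arrays were left out. For the tissues of CD45- controls the count was 1, with 2 under normexp and 0 to 1 without single arrays. For the embryo gate effects it was 1, with 0 on the slide alone and 0 to 3 without single arrays. For the tissue effects of CD45+ cells it was 0, with 1 under normexp and 0 to 3 without single arrays. Leaving out single arrays also gave 0 to 1 in embryo CD45- cells, 0 to 2 between CD45+ control tissues, 1 to 3 for the tissue effects of CD45- cells, 4 to 6 in yolk sac CD45+ cells, 5 to 7 in yolk sac CD45- cells, 6 to 7 for each gate and 6 for the yolk sac gate effects. Where this left 1 array in a group, that array was assumed to vary like the other groups. The cause of these changes was not tested. The percentile over detected probes moved the median of all genes by -0.32 in the yolk sac CD45- genotype comparison and by -0.27 and -0.20 in the yolk sac and embryo gate comparisons. Slides could not be fitted alone between tissues, the value table was used for genotype only, and a stricter filter removed Mecom.

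Deviations of same-numbered samples correlated at over 0.1 in 1 of 4 genotype pairs (r of -0.01 to 0.27) and 3 of 4 gate pairs (0.03 to 0.39). As not every pair did, the numbers were not taken to pair the samples; whether numbers share handling was not tested. With a replicate block the count between tissues of CD45- controls was 2, that in embryo CD45+ cells 3, and Meis1 passed in both (adjusted p = 0.0364 and 0.0339); the other counts stayed within 1.5 times.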
